A study of Fragaria vesca with 9 samples.

Results

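A set of 5 flowering genes of woodland strawberry, *Fragaria vesca*, was followed through axillary buds of 3 genotypes, out of 34006 genes in the deposited tables. They were chosen by identifier: FvH4_6g00090 (FveFT1), FvH4_4g30710 (FveFT2), FvH4_3g09870 (FveFT3), FvH4_6g18480 (FveTFL1) and FvH4_7g12700 (FveSOC1). The files hold identifiers alone, and these names come from the strawberry literature as recalled. Bulk RNA was sequenced from undifferentiated buds at node 4 of untreated plants with 4 leaves, with 3 libraries per genotype. All plants were grown in days of 16 h at 22 °C and nights of 8 h at 18 °C, with light given as 250 µmol. H4 is the Hawaii-4 accession. FT3OE is labelled as Hawaii-4 in ecotype and genotype, and its name is read here as FT3 overexpression; the labels used here name neither the promoter nor how many lines it stands for. RdV is a separate ecotype. The H4 titles have the code US4 where the FT3OE and RdV titles have UB4. Neither code is defined, so a difference between H4 and the others cannot be told apart from it. Nothing in the labels says that replicates were separate plants, so p-values set differences against the spread between these libraries, which may be technical. The buds' labelled identity could not be checked against marker genes, since no identifier was paired with a marker's name.

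FT proteins are small mobile signals. In Arabidopsis, FT is made in leaves, moves to the shoot apex and there acts with the transcription factor FD to start flowering, while its relative TFL1 binds the same partner and opposes it. SOC1 is a MADS-box transcription factor that promotes flowering in Arabidopsis, whereas in woodland strawberry it promotes runner formation and, through FveTFL1, represses flowering. Among the strawberry FT genes, FveFT1 is known from leaves in long days, FveFT2 as a floral activator of the shoot tip, and FveFT3 from work on the fate of axillary buds. Hawaii-4 carries a loss-of-function allele of FveTFL1 and flowers perpetually.

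By counts, which are not divided by gene length, the genes fell into 2 classes of level. FveSOC1 stood high in every bud library, and FveFT3 joined it in FT3OE. FveFT1, FveTFL1 and, outside FT3OE, FveFT3 were read in a few fragments per library, and FveFT2 in none. Totals lay between 23110936 and 44916866 expected counts per library. A floor of 3 counts stood at 0.136 CPM (counts scaled to a common library size with TMM, the trimmed mean of M-values) in the shallowest library and at 0.0653 CPM in the deepest. Of the members, 3 passed the filter on low counts (FveFT3, FveTFL1 and FveSOC1), and FveFT3 passed it through FT3OE alone. The estimation divides a fragment between genes where it matches several. All 31 member values above 0 were exactly whole as deposited, as were 95.9% of such values over all genes.

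**Figure D1:**
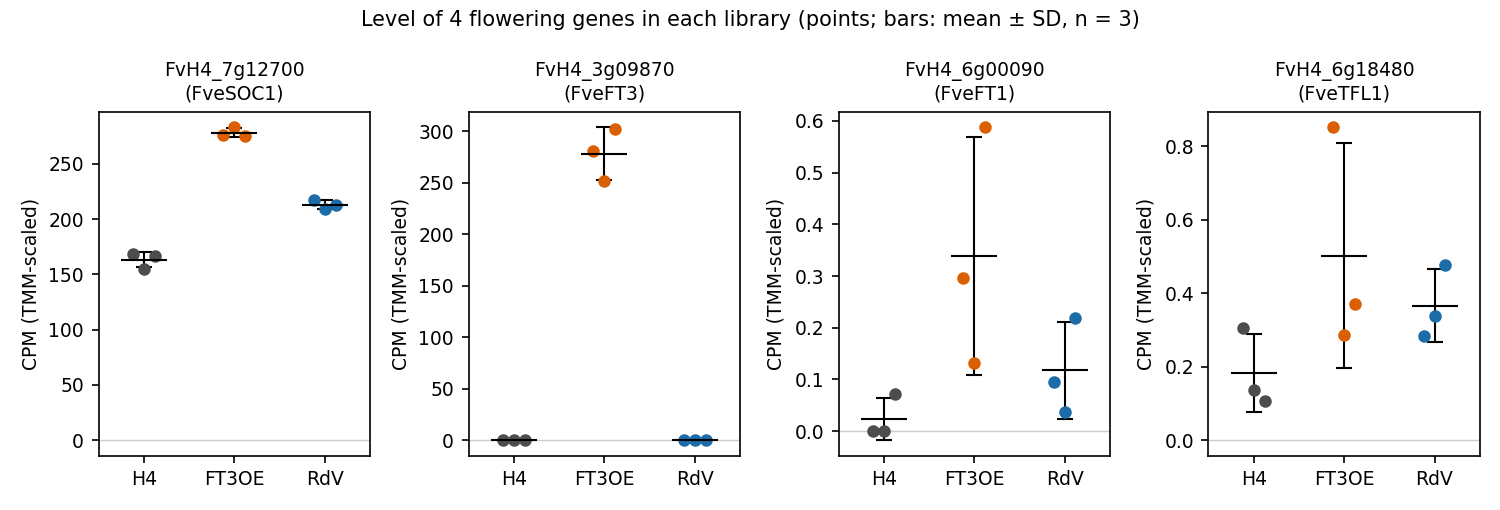
Level of FveSOC1, FveFT3, FveFT1 and FveTFL1 in CPM (vertical axes, each including 0) by genotype; points are libraries, and bars are the mean ± SD of 3 libraries. FveSOC1 separates the genotypes with little spread, FveFT3 is high in FT3OE only, and FveFT1 and FveTFL1 stay below 1 CPM; FveFT2, at 0 in each library, is not drawn.

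FveFT3 is the gene named by the FT3OE line, so its level checks the labels. It was read at 281.1, 251.4 and 302.5 CPM in FT3OE replicates 1, 2 and 3. In H4 it was read at 0.101, 0.0454 and 0 CPM, and in RdV at 0.0315, 0 and 0 CPM. Every FT3OE library was therefore far above every other library, and H4 and RdV overlapped. The 6 libraries of H4 and RdV held 5 fragments of FveFT3 in all, and in each of them the gene was at or below the floor. Reads of the resident gene and of an introduced copy cannot be told apart in these tables.

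Per length, FveFT3 reached 453.3 ± 36.6 TPM (a level per effective length; SD, n = 3) in FT3OE. That placed it at rank 325 of the 22314 genes above 0, 34.1 times the median of those genes. Its rank ran from 296 to 353 over the 3 libraries. In H4 its mean of 0.0733 TPM ranked 20378 of 22024, and in RdV 0.0167 TPM ranked 21866 of 22232. It entered the edgeR fit only through FT3OE, so its differences are given as a description, with no test. Scaled by library size, the summed counts of FT3OE and H4 differed by a ratio of 5546 (95% exact counting interval 2166 to 20356), which rests on 4 counts in H4. The ratio was 13958 without H4 replicate 1, where 1 count is left (2505 to 551322), and 3588 without H4 replicate 3. The counts of 1 in RdV and 4 in H4 are too few for a fold between these genotypes. Intervals and floors cover counting error only.

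FveFT3 varied more between FT3OE libraries than most genes of its level. Its coefficient of variation was 9.22%, above that of 93.3% of the 2357 tested genes with a mean of at least 100 CPM in FT3OE, whose median was 3.34%. FveSOC1, with a coefficient of 1.56%, sat at the other end, above 15.1% of them. The TPM of FveFT3 was 1.32, 1.15 and 1.44 times that of FveSOC1 in FT3OE replicates 1, 2 and 3. The overexpressed gene thus stood above FveSOC1 in each library on this per-length scale, whereas in replicate 2 its CPM was the lower of the pair.

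FveSOC1, the MADS-box gene, was the one member with a high level in every genotype. H4 replicates 1, 2 and 3 were at 168.2, 155.3 and 167.0 CPM. RdV replicates were at 217.1, 209.3 and 213.0 CPM. FT3OE replicates were at 275.9, 283.4 and 275.8 CPM. No library of one genotype overlapped with another, and the order was H4, RdV, FT3OE. The gene was called in each comparison (edgeR, adjusted p under 0.05), where 31.7% of all tested genes were called for FT3OE against H4, 48.1% for RdV against H4 and 22.2% for RdV against FT3OE. Libraries that do not overlap were also common, at 51.1%, 54.9% and 37.8% of tested genes in the same order. A call in itself is thus no rare event here, and what follows describes its size.

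In FT3OE, FveSOC1 was 1.70-fold higher than in H4 (95% interval 1.58 to 1.83; edgeR adjusted p = 2.92e-06). Each pairing of an FT3OE with an H4 library gave a ratio between 1.64 and 1.82. The absolute log2 change, 0.77, was exceeded by 10.8% of all tested genes, but by only 62 (2.6%) of the 2383 genes with a mean of at least 100 CPM. By p-value it ranked 74 of 18587. In RdV the gene was 1.30-fold higher than in H4 (1.21 to 1.40; edgeR adjusted p = 0.000112), with single pairings from 1.24 to 1.40. A larger change in that comparison was found in 39.4% of tested genes and in 26.3% of those with at least 100 CPM. RdV was at 0.77 times the FT3OE level (0.71 to 0.82; edgeR adjusted p = 0.000281), and this is the test of the difference between the 2 effects, which share the H4 libraries.

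The level in RdV lay 43.2% of the way from H4 to FT3OE in CPM and 49.8% on the log2 scale. In all, 84 of 18587 tested genes (0.452%) were called in all 3 comparisons in that rising order, and 77 (0.414%) in the falling order. Among the 84, 2 had a higher mean CPM than FveSOC1, and 75% had a larger log2 change in FT3OE against H4. Per length, FveSOC1 ranked 925 of 22024 genes above 0 in H4 (185.0 ± 9.6 TPM), 594 of 22232 in RdV (267.1 ± 19.2 TPM) and 446 of 22314 in FT3OE (348.5 ± 12.3 TPM; SD, n = 3 each). Thus 2.72%, 1.74% and 1.31% of all genes in the tables stood above it. The ratio of mean TPM was 1.88 for FT3OE and 1.44 for RdV against H4, larger than the ratios of CPM.

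**Figure D2:**
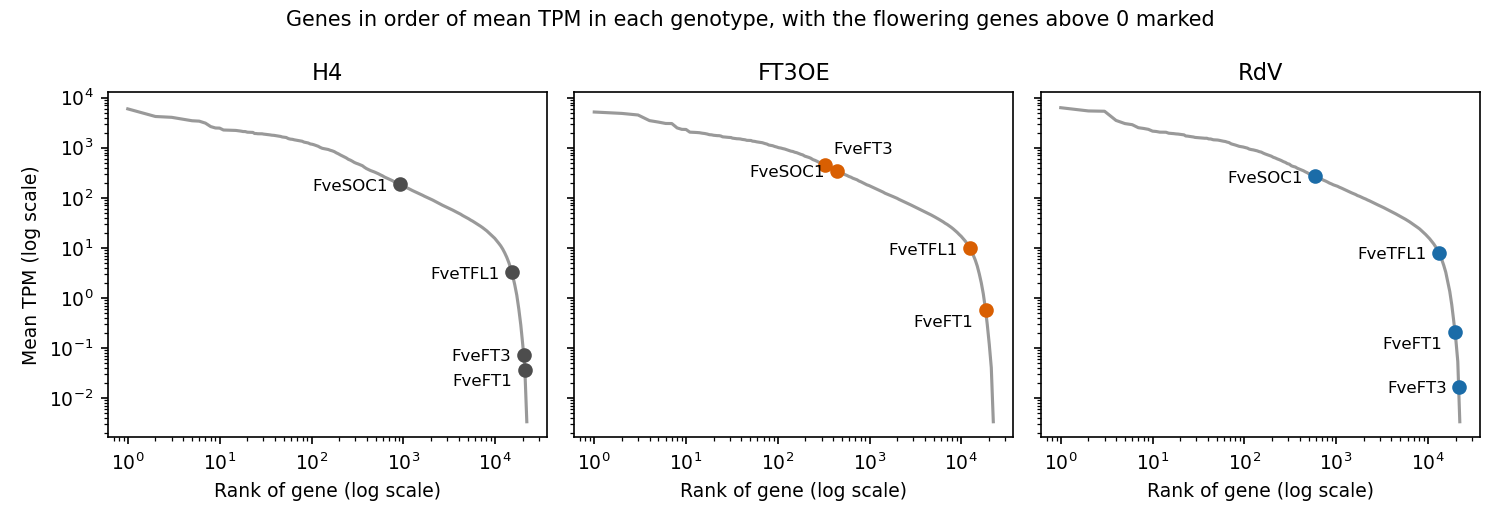
Mean TPM of each gene (vertical, log scale) against its rank among genes above 0 (horizontal, log scale) in H4, FT3OE and RdV; the line is all genes and the points are members. FveSOC1 moves from rank 925 in H4 to 594 in RdV and 446 in FT3OE, FveFT3 stands at rank 325 in FT3OE, and the other points lie on the steep end of the curve.

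FveFT1, the FT gene known from long-day leaves, was read in all 3 libraries of FT3OE and of RdV but in 1 of H4. FT3OE replicates 1, 2 and 3 held 8, 6 and 27 counts, which are 0.297, 0.132 and 0.588 CPM. RdV held 3, 1 and 6 counts, or 0.0946, 0.0375 and 0.220 CPM. H4 held 0, 0 and 2 counts, the last being 0.0710 CPM. All FT3OE libraries were above all H4 libraries, and RdV overlapped with both. Among the 23541 genes with any count, 42.2% did not overlap between FT3OE and H4.

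The mean of FveFT1 was 0.339 ± 0.231 CPM in FT3OE, 0.117 ± 0.093 in RdV and 0.0237 ± 0.0410 in H4 (SD, n = 3 each). FT3OE exceeded H4 by 0.315 CPM, with an exact two-sided permutation p of 0.1, the smallest that 3 against 3 libraries allow. Without FT3OE replicate 3 that difference was 0.190 CPM. RdV exceeded H4 by 0.0936 CPM (exact permutation p = 0.2), and by 0.0424 CPM without RdV replicate 3. RdV minus FT3OE was -0.221 CPM (exact permutation p = 0.2), and -0.0968 CPM without FT3OE replicate 3. FveFT1 fell below the filter on low counts. Fitted without that filter it had a log2 change of 3.58 in FT3OE against H4 (95% interval 1.21 to 5.95; edgeR adjusted p = 0.0317), where 23.5% of 23541 genes were called. The interval for RdV against H4 was -0.61 to 4.74 and that for RdV against FT3OE -3.37 to 0.35, with edgeR adjusted p of 0.218 and 0.278. FT3OE replicate 3 held 27 of the 41 counts. Scaled by library size, the ratio of summed counts to H4 was 13.8 with it (95% exact counting interval 3.59 to 118) and 7.7 without it (1.77 to 69.8). Without H4 replicate 3, which held both H4 counts, the ratio was 5.96 with 3 counts assumed for the remaining H4 libraries together. The lower limit of the exact counting interval was 4.63 there. Without H4 replicate 1 the ratio was 8.69. FveFT3 counts were 948, 1910 and 514 times those of FveFT1 in FT3OE replicates 1, 2 and 3. Per length FveFT1 ranked 18354 of the 22314 genes above 0 in FT3OE, 19736 of 22232 in RdV and 21017 of 22024 in H4. Of all genes in the tables, 46.0%, 41.9% and 38.0% lay below it in that order, and those include genes at 0.

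FveFT2, the floral activator of the shoot tip, had no count in any of the 9 libraries. A floor of 3 counts over the libraries of a genotype leaves room for a level of 0.0376 CPM in H4. The same limit was 0.0253 CPM for FT3OE and 0.0350 CPM for RdV. FveFT2 was one of 10465 genes at 0 throughout. In bulk tissue, fewer cells of a type and less RNA per cell cannot be told apart, so a gene confined to few cells could lie under these limits.

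FveTFL1, the repressor that opposes FT, was read in every library at 3 to 23 counts. H4 replicates held 9, 3 and 3 counts, or 0.304, 0.136 and 0.106 CPM. FT3OE replicates held 23, 13 and 17, or 0.853, 0.285 and 0.370 CPM. RdV replicates held 9, 9 and 13, or 0.284, 0.338 and 0.476 CPM. FT3OE replicate 1 was the highest library and H4 replicates 2 and 3 the lowest, and each pair of genotypes overlapped.

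No comparison of FveTFL1 passed the threshold in edgeR, and the intervals were wide. The FT3OE level was 2.53 times that in H4 (95% interval 1.06 to 6.02; edgeR adjusted p = 0.0966). That interval is not adjusted for the 18587 genes tested, and the p before adjustment was 0.0386. RdV was at 1.93 times H4 (0.77 to 4.84; adjusted p = 0.215) and at 0.76 times FT3OE (0.35 to 1.66; adjusted p = 0.644). The order of the genotypes for FveTFL1 is thus not resolved at this depth. Without FT3OE replicate 1 the log2 change of FveTFL1 in FT3OE against H4 went from 1.34 to 0.80, and that between RdV and FT3OE turned from -0.39 to 0.15. Without H4 replicate 1 the values were 1.96 in FT3OE and 1.57 in RdV against H4.

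**Figure D3:**
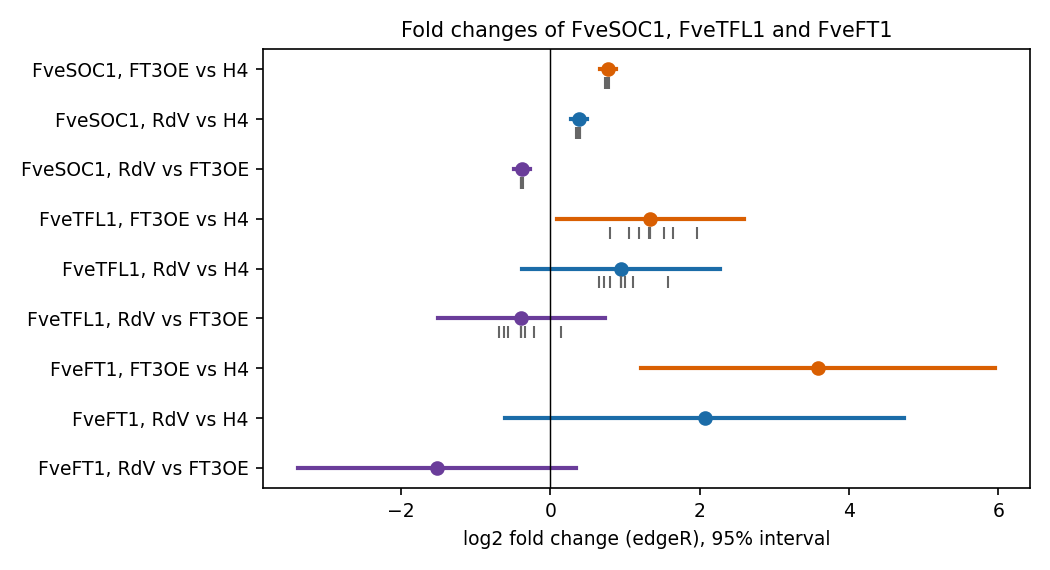
log2 fold change (horizontal) with its 95% interval for FveSOC1, FveTFL1 and FveFT1 in the 3 comparisons; grey ticks are the values with 1 library left out, and FveFT1 comes from the fit without a filter. The FveSOC1 intervals are narrow and clear of 0, those of FveTFL1 and FveFT1 are wide, and 1 tick of FveTFL1 in RdV against FT3OE lies on the other side of 0.

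The level of FveTFL1 depends on the scale more than that of any other member read. TPM divide by effective length, the number of positions a fragment can start from, and counts per TPM follow that length within a library. For FveTFL1 this was 3.79% to 4.89% of that of the median gene with at least 50 counts, over the 9 libraries, and 0.189% to 0.300% of such genes were shorter. It was 67.3% to 69.5% for FveSOC1, 52.6% to 53.4% for FveFT3 and 49.9% to 51.0% for FveFT1 in the libraries with 3 or more counts. The FT genes that were read thus lie close to each other in effective length, and FveTFL1 stands apart. FveTFL1 is itself below the cut of 50 counts in every library, and a cut on counts can leave out short genes. Its mean was 3.22 ± 1.89 TPM in H4, 9.73 ± 5.37 in FT3OE and 7.85 ± 2.61 in RdV (SD, n = 3 each). By mean TPM, 55.5%, 63.3% and 61.2% of all genes lay below FveTFL1 in H4, FT3OE and RdV, against 44.8%, 47.9% and 46.5% by mean CPM.

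**Figure D4:**
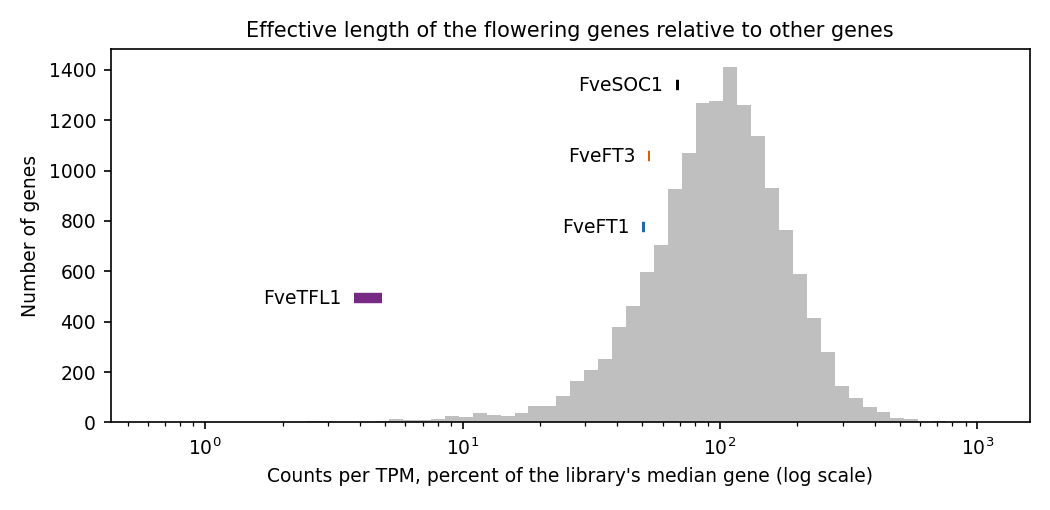
Number of genes (vertical) by counts per TPM as a percent of the median gene (horizontal, log scale), averaged over libraries for genes with at least 50 counts in each; coloured marks span the libraries of each member with 3 or more counts, and their height has no meaning. FveTFL1, itself under 50 counts in each library, lies at 3.79% to 4.89%, outside the main body of these genes, and the other members between 49.9% and 69.5%.

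For FveSOC1 and FveFT3, the identifiers with the most similar pattern over the 9 libraries were found by Pearson's r of log2 CPM among 14106 tested genes with a mean of at least 5 CPM. The 9 points come from 3 genotypes, so these r are descriptions. The identifier most like FveSOC1 was FvH4_5g08670 (r = 0.99), with 42.7 ± 0.7 CPM in H4, 56.7 ± 1.3 in RdV and 70.0 ± 3.4 in FT3OE. The most opposite was FvH4_2g32400 (r = -0.99), with 339.4 ± 17.0 CPM in H4, 177.9 ± 1.3 in RdV and 90.2 ± 12.9 in FT3OE. In all, 75 genes had r above 0.95 with FveSOC1 and 66 had r below -0.95.

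FveFT3 was at or below the floor outside FT3OE, so its r sets FT3OE against the other libraries and little else. It was above 0.95 for 15 genes and below -0.95 for 31. The most alike was FvH4_1g07300 (r = 0.99), at 221.5 ± 10.7 CPM in FT3OE, 155.4 ± 7.0 in H4 and 154.0 ± 1.3 in RdV. The most opposite was FvH4_5g34610 (r = -0.99), at 2.47 ± 0.31 CPM in FT3OE, 12.6 ± 0.5 in H4 and 12.2 ± 1.3 in RdV (SD, n = 3 each). With a minimum mean of 1 CPM another identifier was the most alike (r = 0.99), with 6.50 ± 0.42 CPM in FT3OE, 0.0237 ± 0.0410 in H4 and 0 in each RdV library. By Spearman's rho other identifiers took each of the 4 places named here.

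**Figure D5:**
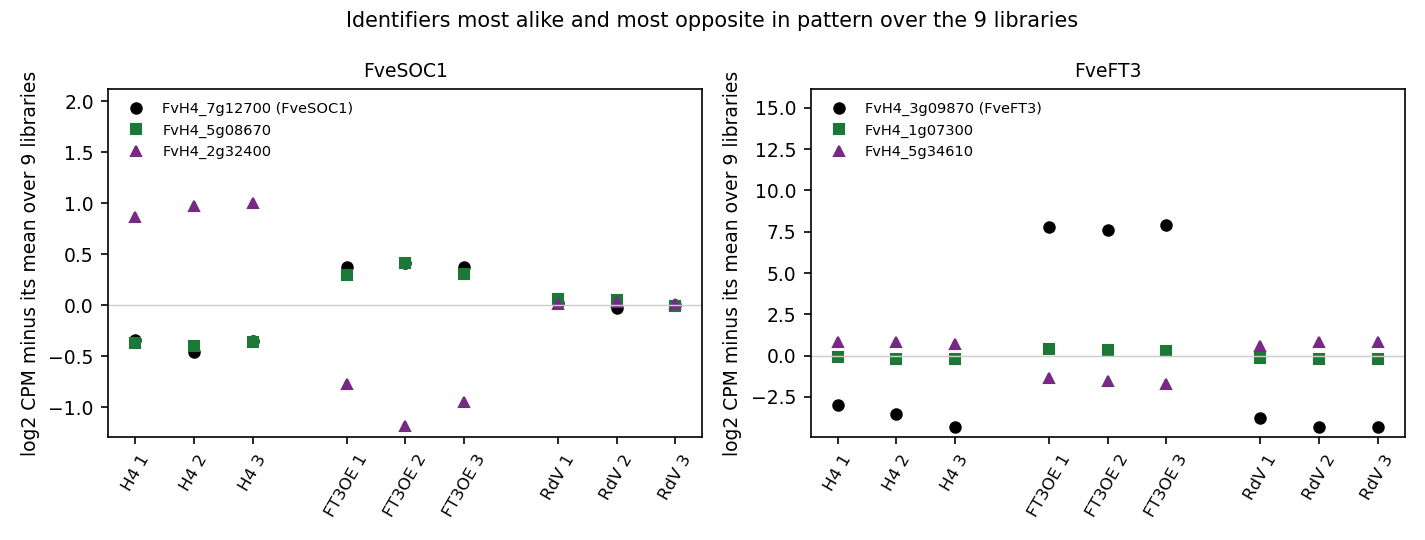
log2 CPM minus its mean over the 9 libraries (vertical) in each library (horizontal) for FveSOC1 and FveFT3 (circles), the identifier most alike (squares) and the one most opposite (triangles). FvH4_5g08670 lies close to FveSOC1 in each genotype, whereas FvH4_1g07300 shares the shape of FveFT3 at a much smaller range.

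Genes next to the members, taken by identifier number on the same linkage group, were tested to see whether they moved with the members. Of the 50 neighbours, 5 on each side, 32 were tested, and 11 (34.4%) were called in FT3OE against H4, 15 (46.9%) in RdV against H4 and 4 (12.5%) in RdV against FT3OE. The shares over all genes were 31.7%, 48.1% and 22.2%. Among the 10 neighbours of FveFT3, 3 were tested, with log2 changes from -0.17 to 0.53 in FT3OE against H4, where 2 of them were called higher. In RdV against H4 their changes ran from -0.37 to 0.67, with 2 called higher and 1 lower. Between RdV and FT3OE 0 of them were called. The 6 tested neighbours of FveSOC1 had log2 changes from -2.68 to 0.32 in FT3OE against H4. Of these, 2 were called in each comparison with H4, and both calls were lower. With 10 on each side, a window added after the data had been seen, 1 was called higher and 2 lower in FT3OE against H4, and 3 higher and 5 lower in RdV against H4.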

How the data were processed

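The authors deposited expected counts per gene, which are estimates, and TPM per gene, which are divided by effective length and then brought to the same sum in all libraries. Per the labels' protocols, stranded mRNA libraries were read as 150 bp pairs. The submitters' processing notes name STAR, RSEM and edgeR without roles or versions; for the genome build, a name is not given in the sources used here. The members and lists were chosen with earlier results of these data known. Of 34006 identifiers, 0 matched the gene table used here, so the lists of other flowering, gibberellin, bud and marker genes were not tested and no sequence is shown.

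Expected counts were rounded, filtered with filterByExpr (18587 genes left), scaled with TMM and tested in one fit of all 9 libraries (edgeR 4.0.16, R 4.3.3, glmQLFit and glmQLFTest), with Benjamini-Hochberg adjustment over all genes. The test was checked on simulated data. Intervals of fold changes use the fit's standard error. The 5 members are named by rule, and besides them, for FveFT3 and FveSOC1, the identifier with the highest and the lowest r. CPM of genes under the filter use the same library sizes. Replicate pairs differed by more than counting noise (chi-square per degree of freedom at least 5.81). The pairs with RdV replicate 2 stood highest, at 30.4 and 21.2, and the next highest pair, in FT3OE, was at 10.2. Alternatives were RLE scaling, library totals, DESeq2 1.42.0, limma 3.58.1 on log2(TPM + 1) and log2(TPM + 0.1), other filters, fits of 6 libraries, a replicate block, and leaving out each library. Python 3.11.15 with scipy 1.17.1 was used for exact tests.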

Additional observations from a re-analysis of the deposited data

Results flagged for a closer look

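The response to FT3OE and to RdV, each against H4, differed in FvH4_7g12700 (FveSOC1), where RdV minus FT3OE was -0.385 on the log2 scale (edgeR adjusted p = 0.000281). It also differed in FvH4_3g09870 (FveFT3), the gene that the FT3OE line is named for, with a fitted log2 value of -14.12 for RdV minus FT3OE. That value rests on 1 count in RdV, and the gene was in the fit only through FT3OE, so no p is given. Without RdV replicate 1, which held that count, the ratio for FveFT3 was 4998 with 3 counts assumed for the remaining RdV libraries together. The lower limit of the exact counting interval was 4065 there.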

How the results depend on the processing

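FveSOC1 kept its direction and its side of the threshold in all 3 comparisons under all 19 alternatives run for each. Its log2 change ranged from 0.73 to 0.91 in FT3OE against H4, 0.34 to 0.53 in RdV against H4 and -0.40 to -0.37 in RdV against FT3OE. Leaving out 1 library gave 0.73 to 0.79, 0.34 to 0.40 and -0.40 to -0.37. FveFT3 passed the filters through FT3OE alone, so its calls under the alternatives say nothing of stability; its fitted log2 value against H4 ranged from 8.72 to 13.51. Library totals alone moved the median of all genes to 0.107 in FT3OE against H4, and limma on log2(TPM + 0.1) to 0.129; relative to these medians FveSOC1 was at 0.75 and 0.78. For FvH4_6g18480 (FveTFL1), limma on log2(TPM + 1) with a minimum mean of 1 TPM passed the threshold for FT3OE against H4 (1.32, adjusted p = 0.0355) and for RdV against H4 (1.12, adjusted p = 0.0481), while the same test without that minimum gave adjusted p of 0.0535 and 0.0695; over all alternatives adjusted p ranged from 0.0355 to 0.305 and from 0.0481 to 0.452. Without FT3OE replicate 1 its change in RdV against FT3OE turned to 0.149, with a range of -0.69 to 0.15 over libraries left out. For FveFT1, edgeR with no filter passed the threshold in FT3OE against H4 at a log2 change of 3.58, and with the replicate block at 3.73 (adjusted p = 0.0203); an exact test of 3 against 3 libraries could not. Leaving out 1 library moved its difference between 0.190 and 0.419 CPM.

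With the replicate block, called genes went from 5884 to 5312, 8936 to 8533 and 4122 to 3611 in the 3 comparisons. Same-numbered libraries correlated in their deviations at -0.178 to 0.181, with 3 of 9 pairs the best match. Shared handling was not tested. No member's call changed under the block in the filtered fits: FveSOC1 was then at 0.77, 0.38 and -0.39. The RdV against FT3OE calls fell to 2536 under limma on log2(TPM + 0.1). Calls over libraries left out ranged from 4119 to 7372, 7499 to 10014 and 2883 to 5183. Each upper end came from leaving out RdV replicate 2, so more genes were called without that library than with it. The cause of these changes was not tested. A filter of 1 CPM removes FveTFL1, and fits of 6 libraries leave it out of both comparisons with H4 and FveFT3 out of RdV against H4, so no value exists there. With 10 neighbours on each side, chosen after seeing the data, 22.8% were called in FT3OE against H4.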
